A study of Homo sapiens with 95 samples.

Results

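Interferon-stimulated genes were followed through 8 populations of cultured bronchial epithelial cells and 3 tobacco-related chemicals. The group was given as a list of 39 gene symbols, and all 39 were found among the 23895 genes counted in every well. Genes with a mean count over 1 across the 95 wells were used, which left 36. The other members were close to absent: BST2 averaged 0.0211 counts per well, MX2 0.0842 and XAF1 0.663.

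Interferons are secreted proteins that cells release when they sense viral or misplaced nucleic acid. They bind receptors on the same or neighbouring cells, JAK kinases are activated there, and a complex that holds STAT2 and IRF9 enters the nucleus and switches on genes carrying an interferon-stimulated response element. In airway epithelium the induced proteins form a first barrier against respiratory viruses, and many of them are also held at a low steady level in unstimulated cells.

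The cells were AALE, an immortalized line derived from human bronchial epithelium. Overexpression populations carried NRF2 (the gene NFE2L2, a regulator of antioxidant genes), FGFR1 (a growth factor receptor), NRG1 (a ligand of ERBB receptors) or PIK3CA (a lipid kinase subunit), with cells carrying a vector that expresses the red reporter HcRed as their control. In the CRISPR populations FAT1 (an adhesion molecule of the cadherin family) or CDKN2A (a cell cycle inhibitor) was targeted, with cells given a Cas9 plasmid that also encodes GFP, without a guide RNA, as their control. Each population was given DMSO alone as vehicle, or 24 µg/ml of cigarette smoke condensate (CSC), or 173 µM of the polycyclic hydrocarbon benzo[a]pyrene (BaP), or 490 µM of the tobacco nitrosamine NNK. Messenger RNA was counted by 3′ digital gene expression (3′DGE), in which a molecule read at its 3′ end adds 1 unique molecular identifier (UMI) to its gene. The labels name no interferon treatment.

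The 82 wells with replicate numbers of 1 digit entered the main comparisons, with 3 DMSO wells in each population. The study calls its replicates biological, and cells were plated in wells before exposure, but the labels do not name separate passages or days. The p-values therefore rest on the spread between wells of a group, shared largely across genes as given below. Each chemical filled its own pair of plate rows. Columns 1 to 3 held HcRed and NRF2 cells, columns 4 to 6 GFP and NRG1, columns 7 to 9 FGFR1 and FAT1, and columns 10 to 12 PIK3CA and CDKN2A, with the first of each pair in the upper row. A population or a chemical and its position on the plate cannot be told apart. Total counts ran from 692446 to 1895735 among the 82 wells and from 1168645 to 1792617 in the DMSO wells. In a DMSO well 1 count therefore stood for 0.558 to 0.856 CPM (counts scaled to a library total of 1e+06), the unit of level used throughout. The targeted genes followed the labels in DMSO wells: the overexpressed gene lay above its control in every well of its population, while FAT1 (0 to 3.40 CPM against 5.86 to 11.6 CPM) and CDKN2A (18.97 to 23.8 CPM against 34.9 to 38.6 CPM) lay below theirs. NRG1 well 2 under NNK stood apart from its replicates, and the NNK comparisons that hold it, apart from alternative fits, are given with and without it.

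The response element is shown first, since it is the sequence through which interferon signalling acts. RefSeq promoters of the GRCh38.p14 assembly, reaching from 250 bases before the start of transcription to 50 bases after it, were at hand for 22 of the 39 members. A core of the response element, GAAA followed by any 2 bases and GAAA again, searched on both strands, was present in 16 of these 22 (72.7%), against 1255 of all 35116 promoters (3.57%). The 6 windows below belong to members whose level differed among populations, taken by adjusted p in the F test below from those with a match. DDX58, OAS1, STAT2 and IRF9 also differed and had a promoter sequence, but it held no match and is not shown. Windows are read along the coding strand, with the matching bases in capitals and the others in lower case. In IFIT1 the element reads as TTTC, any 2 bases and TTTC, its form on the opposite strand.
IFIT1 (chr10:89392472-89392551, plus strand): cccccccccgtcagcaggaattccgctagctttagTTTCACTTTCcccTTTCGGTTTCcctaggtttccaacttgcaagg
IFITM3 (chr11:320868-320947, minus strand): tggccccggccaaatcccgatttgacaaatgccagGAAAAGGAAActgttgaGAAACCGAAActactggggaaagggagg
SAMD9 (chr7:93118071-93118150, minus strand): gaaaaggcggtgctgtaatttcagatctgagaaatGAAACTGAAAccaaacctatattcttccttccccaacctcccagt
LGALS3BP (chr17:78979937-78980016, minus strand): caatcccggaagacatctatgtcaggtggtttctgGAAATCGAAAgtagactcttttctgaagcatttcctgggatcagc
ISG15 (chr1:1013349-1013428, plus strand): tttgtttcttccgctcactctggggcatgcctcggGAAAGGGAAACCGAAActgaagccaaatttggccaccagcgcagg
IFI44L (chr1:78620249-78620328, plus strand): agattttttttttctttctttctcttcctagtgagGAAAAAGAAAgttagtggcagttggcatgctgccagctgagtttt
IFIT1 and IFITM3 hold a pair of matches a few bases apart, and in ISG15 the matches overlap. Of the members that differed among populations, 11 of the 15 with a promoter sequence held a match, and of the used members that did not, 4 of 6 did. A match describes these letters alone and was not tested as a binding site.

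The first question was whether the populations differed in interferon-stimulated genes under the vehicle. In a limma F test over the 24 DMSO wells, 26 of the 36 used members differed among the 8 populations at an adjusted p under 0.05, where 39.6% of all genes tested did. Adjusted p-values here and below are from limma, two-sided for differences and Benjamini-Hochberg adjusted over all genes with a mean count over 1 in the wells compared. In limma the spread of each gene is drawn toward a value pooled over all genes, weighted by prior degrees of freedom. In the fits of population pairs under DMSO these were 40.5 to 100, or infinite for FGFR1, against 4 residual degrees of freedom. In the FGFR1 fit a gene's own spread between wells thus did not enter its p-value. The 10 that did not pass were ISG20, IFI6, IFI35, MX1, OAS2, IRF1, IRF7, DTX3L, SP100 and EPSTI1. Among these SP100 was the most abundant, with population means of 28.2 to 39.3 CPM, and MX1 the least, at 0 to 1.42 CPM. FGFR1 cells had the highest mean of 11 of the 26 and FAT1 cells of 9, while GFP control cells had the lowest mean of 16 and NRF2 cells of 5. The mean log2 CPM over the 36 used members ran from 2.66 to 2.78 in the GFP wells and from 3.16 to 3.31 in the HcRed wells. It reached 3.71 to 3.83 in the FAT1 wells and 3.78 to 3.84 in the FGFR1 wells. The 2 control populations thus started from different levels, a difference that bears on every comparison with either of them. In such bulk wells, fewer cells expressing a gene and less RNA per cell cannot be told apart.

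**Figure D1:**
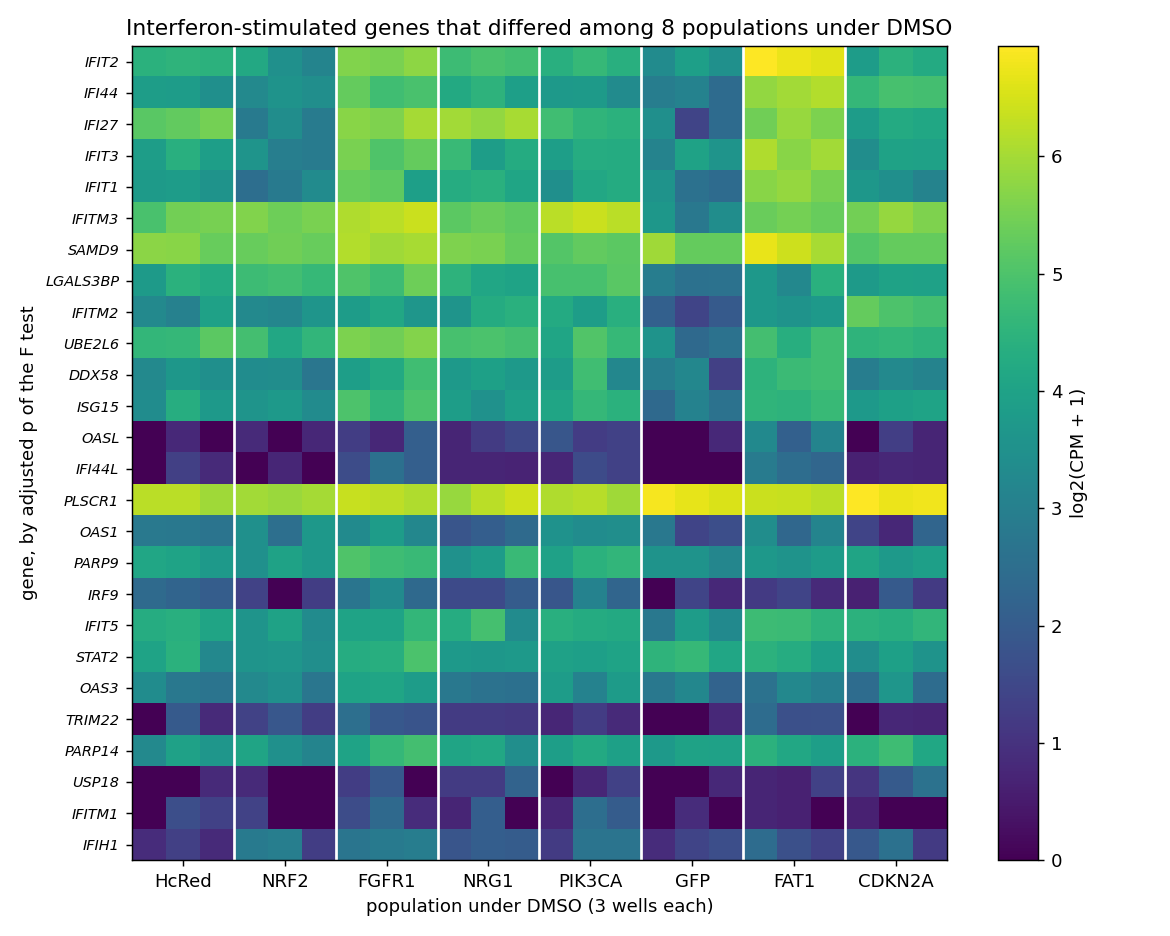
The level of the 26 interferon-stimulated genes that differed among populations, as log2(CPM + 1) by colour, in each of the 24 DMSO wells (columns, 3 per population, separated by white lines). Genes are ordered by the adjusted p of the F test; most rows are darkest in the GFP wells and brightest in the FGFR1 or FAT1 wells.

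The IFIT genes encode tetratricopeptide repeat proteins that bind viral RNA and block its translation. IFIT2, IFIT3, IFIT1 and IFIT5 lie close together on the plus strand of chromosome 10 (hg19), from 91043451, the start of IFIT2, to 91181362, the end of IFIT5. IFIT2 had the smallest adjusted p of the list in the F test. Its level was 20.5, 22.1 and 20.9 CPM in the HcRed wells, 17.3, 10.2 and 7.74 CPM with NRF2, 48.5, 46.1 and 53.01 CPM with FGFR1, 25.9, 29.8 and 27.4 CPM with NRG1 and 19.9, 24.2 and 19.8 CPM with PIK3CA. In the CRISPR set it was 9.23, 14.1 and 10.3 CPM in the GFP wells, 122, 106 and 98.8 CPM in the FAT1 wells and 13.4, 20.9 and 17.8 CPM in the CDKN2A wells. The FAT1 wells lay above all others and the FGFR1 wells above the remaining ones, while HcRed and PIK3CA wells overlapped. IFIT3, which binds IFIT1 and stabilizes it, was at 13.7, 19.9 and 13.9 CPM (HcRed), 11.02, 6.80 and 6.34 CPM (NRF2), 45.7, 31.4 and 38.1 CPM (FGFR1), 25.2, 13.6 and 18.3 CPM (NRG1) and 13.9, 18.8 and 18.2 CPM (PIK3CA). Its CRISPR wells held 7.55, 14.95 and 11 CPM (GFP), 68.6, 50.97 and 62.5 CPM (FAT1) and 9.48, 15.1 and 14.6 CPM (CDKN2A). The same populations led, with every FAT1 well above every FGFR1 well. For IFIT1 the HcRed, NRF2, FGFR1, NRG1 and PIK3CA wells held 12.8, 13.2 and 10.8, then 4.72, 6.12 and 9.15, then 39.5, 36.3 and 14.1, then 18.7, 20.1 and 15.8 and last 9.94, 16.8 and 18.2 CPM. Under GFP, FAT1 and CDKN2A it held 10.9, 4.98 and 4.40, then 50.8, 56.1 and 44.7, then 11.7, 10.1 and 7.63 CPM. FGFR1 well 3 was low for IFIT1 and overlapped the PIK3CA wells, and GFP well 1 overlapped HcRed.

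IFI44 encodes a GTP-binding-like protein induced by interferon, on chromosome 1 (hg19, 79115481 to 79129763), next to its relative IFI44L. It was at 13.7, 13.2 and 10.1 CPM in HcRed wells, 8.66, 10.9 and 9.85 CPM with NRF2, 38.1, 27.2 and 29.8 CPM with FGFR1, 17.5, 21.4 and 14.01 CPM with NRG1 and 12.6, 12.8 and 9.12 CPM with PIK3CA. The GFP wells held 6.71, 7.48 and 4.40 CPM, the FAT1 wells 55.9, 62.3 and 70.2 CPM and the CDKN2A wells 23.4, 29.5 and 27.98 CPM. The 3 groups FAT1, FGFR1 and CDKN2A lay above all the others, and GFP below all the others. SAMD9, a cytoplasmic restriction factor against poxviruses, was more even. It held 52.2, 51.5 and 39.5 CPM in HcRed wells, 39.3, 42.2 and 39.4 CPM with NRF2, 69.3, 61.5 and 64.6 CPM with FGFR1, 47.2, 45.4 and 38.4 CPM with NRG1 and 33.1, 37.6 and 35.7 CPM with PIK3CA. Its levels were 61.3, 38.2 and 38.1 CPM in GFP wells, 104, 84.4 and 64.04 CPM in FAT1 wells and 32.9, 38.2 and 38.2 CPM in CDKN2A wells. FAT1 and FGFR1 wells overlapped each other and lay above all the rest. DDX58 encodes RIG-I, the sensor of viral RNA, and its reads were fewer. DDX58 stood at 8.56, 11.8 and 10.1 CPM (HcRed), 9.44, 9.53 and 5.63 CPM (NRF2), 13.9, 17.5 and 27.3 CPM (FGFR1), 12.3, 14.3 and 12.2 CPM (NRG1) and 13.2, 26.8 and 8.36 CPM (PIK3CA). In the other set DDX58 stood at 6.71, 8.31 and 1.47 CPM (GFP), 21.6, 25.5 and 27 CPM (FAT1) and 6.69, 8.64 and 7.63 CPM (CDKN2A). The PIK3CA wells spread across the range of most other populations.

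ISG15 is a ubiquitin-like protein that is joined to other proteins, UBE2L6 is the enzyme that carries it, and USP18 removes it again. ISG15 was at 9.41, 19.1 and 12.4 CPM in HcRed wells, 11.02, 12.2 and 9.15 CPM with NRF2, 31.2, 22.3 and 30.6 CPM with FGFR1, 13.6, 10.4 and 14.01 CPM with NRG1 and 15.9, 23.5 and 20.5 CPM with PIK3CA. It was at 4.20, 7.48 and 5.13 CPM with GFP, 22.2, 21.5 and 24.7 CPM with FAT1 and 12.3, 14.4 and 15.3 CPM with CDKN2A. The GFP wells were below every other well. UBE2L6 had the same low group, at 10.9, 4.15 and 5.13 CPM in GFP wells against 27.9, 19.3 and 27 CPM with FAT1 and 21.8, 23.04 and 21.6 CPM with CDKN2A. Its overexpression set held 23.1, 23.5 and 35.6 CPM (HcRed), 28.3, 17.01 and 22.5 CPM (NRF2), 46.4, 42.6 and 49.7 CPM (FGFR1), 29.1, 30.5 and 28.03 CPM (NRG1) and 15.9, 32.2 and 24.3 CPM (PIK3CA). FGFR1 wells were the highest for UBE2L6.

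IFITM proteins sit in membranes and hinder the entry of viruses. IFITM1, IFITM2 and IFITM3 are near-identical neighbours on chromosome 11, so their division of reads is uncertain. IFITM3 was at 29.9, 43.4 and 44.9 CPM (HcRed), 48, 41.5 and 45.8 CPM (NRF2), 67.9, 73.3 and 82.8 CPM (FGFR1), 35.6, 39.6 and 35.95 CPM (NRG1) and 74.2, 81.9 and 73.7 CPM (PIK3CA). The GFP wells held 11.7, 5.82 and 9.53 CPM, the FAT1 wells 40, 44.2 and 39.3 CPM and the CDKN2A wells 43.5, 56.9 and 47.7 CPM. Here PIK3CA joined FGFR1 at the top, and FAT1 wells lay within the HcRed range. IFITM2 had its highest level elsewhere, at 38.5, 30.96 and 27.98 CPM in CDKN2A wells, against 3.36, 1.66 and 2.93 CPM with GFP and 12.1, 10.8 and 12.3 CPM with FAT1. In the overexpression set IFITM2 was at 8.56, 7.35 and 14.7 CPM (HcRed), 8.66, 8.16 and 11.3 CPM (NRF2), 13.2, 16.8 and 11.6 CPM (FGFR1), 10.99, 18.2 and 20.1 CPM (NRG1) and 17.9, 13.4 and 19.8 CPM (PIK3CA). Every CDKN2A well exceeded all other wells for IFITM2.

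IFI27, a small mitochondrial protein gene that responds strongly to type I interferon, ranged from 1.66 to 64.0 CPM. It was at 35.1, 37.5 and 44.1 CPM (HcRed), 6.30, 9.53 and 6.34 CPM (NRF2), 51.3, 47.5 and 62.95 CPM (FGFR1), 62.1, 55.8 and 63.98 CPM (NRG1) and 27.2, 22.1 and 20.5 CPM (PIK3CA). The CRISPR set held 10.1, 1.66 and 4.40 CPM (GFP), 41.9, 57.2 and 46.3 CPM (FAT1) and 13.4, 18 and 16.5 CPM (CDKN2A). NRF2 and GFP wells overlapped at the bottom, and FGFR1, NRG1 and FAT1 wells overlapped at the top, where a FAT1 well also fell within the HcRed range. LGALS3BP, a secreted glycoprotein that binds galectins, was at 12.8, 20.6 and 17.8 CPM (HcRed), 25.97, 27.9 and 23.9 CPM (NRF2), 31.9, 25.8 and 41.4 CPM (FGFR1), 21.3, 16.2 and 15.2 CPM (NRG1) and 29.1, 29.5 and 34.95 CPM (PIK3CA). It was at 6.71, 4.98 and 5.13 CPM with GFP, 12.1, 8.50 and 20.1 CPM with FAT1 and 12.8, 15.1 and 14.6 CPM with CDKN2A. The GFP wells were again the lowest.

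**Figure D2:**
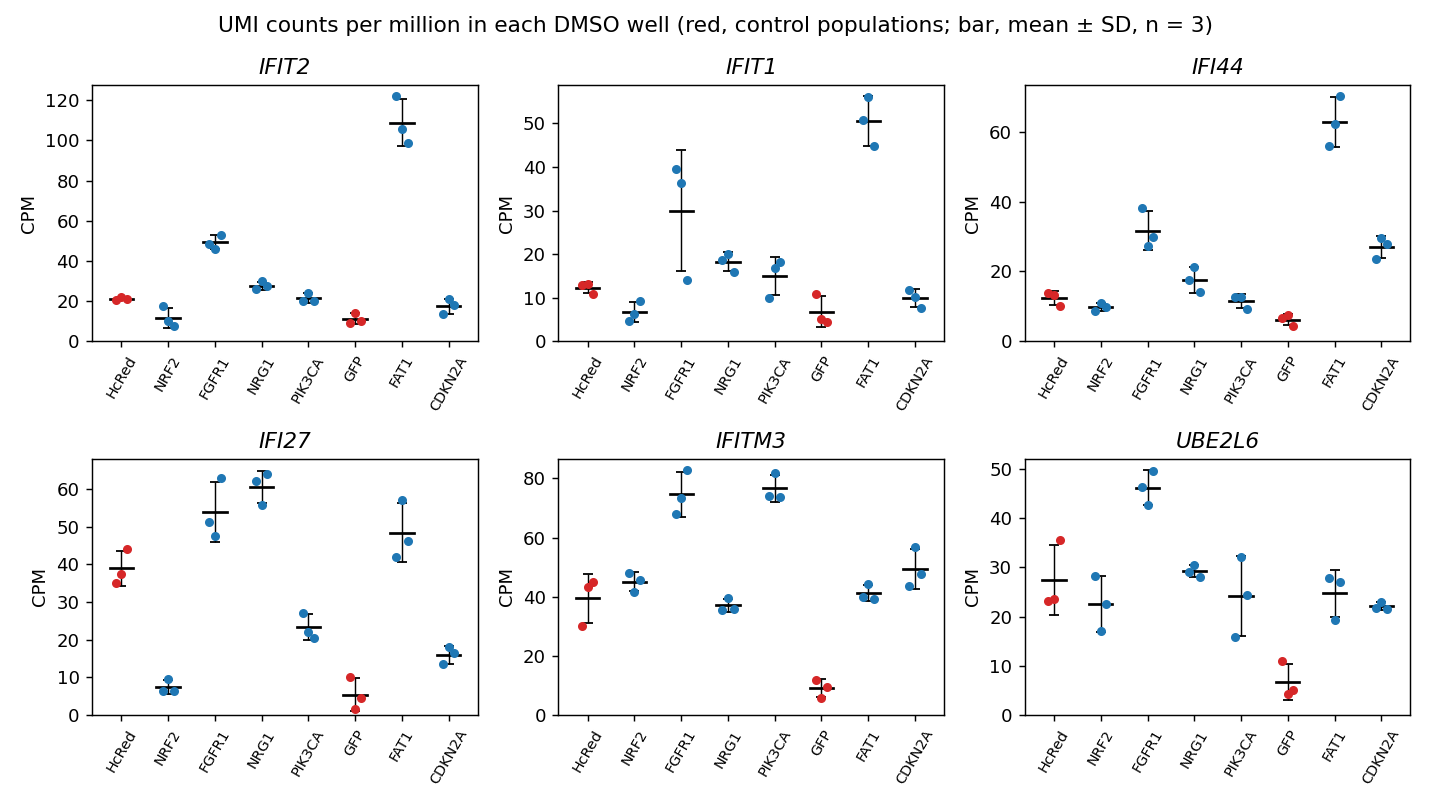
CPM of 6 interferon-stimulated genes in each DMSO well (points), with the mean and SD of 3 wells (bars), for the 8 populations; control populations are red. FAT1 wells stand highest for IFIT2, IFIT1 and IFI44, whereas for IFI27, IFITM3 and UBE2L6 they lie near HcRed and the GFP wells are lowest or among the lowest.

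The remaining called members are given by their lowest and highest population mean under DMSO. IFIT5, another RNA-binding IFIT protein, ran from 9.32 ± 3.74 CPM (SD, n = 3) in GFP cells to 24.4 ± 2.41 CPM (SD, n = 3) in FAT1 cells. PLSCR1, the lipid scramblase, ran from 61.3 ± 2.52 CPM (SD, n = 3) in NRF2 cells to 112 ± 6.94 CPM (SD, n = 3) in CDKN2A cells. PARP14, an ADP-ribosyltransferase, ran from 11.2 ± 4.10 CPM (SD, n = 3) in NRF2 cells to 22.4 ± 6.57 CPM (SD, n = 3) in FGFR1 cells. The lowest means of these 3 genes were in GFP or NRF2 cells. PARP9, the partner of DTX3L, ran from 9.92 ± 1.61 CPM (SD, n = 3) in GFP cells to 27.7 ± 3.66 CPM (SD, n = 3) in FGFR1 cells. STAT2, which carries the activating domain of the interferon-induced complex, ran from 10.8 ± 0.874 CPM (SD, n = 3) in NRF2 cells to 22.97 ± 6.66 CPM (SD, n = 3) in FGFR1 cells. OAS1, which makes the second messenger that activates RNase L, ran from 2.07 ± 1.59 CPM (SD, n = 3) in CDKN2A cells to 10.2 ± 2.69 CPM (SD, n = 3) in FGFR1 cells. OAS genes resemble each other, so the division of reads among them is uncertain. OAS3, a longer enzyme of that family, ran from 5.29 ± 0.48 CPM (SD, n = 3) in NRG1 cells to 14.9 ± 1.44 CPM (SD, n = 3) in FGFR1 cells. IFIH1, the sensor MDA5, ran from 1.03 ± 0.381 CPM (SD, n = 3) in HcRed cells to 6.15 ± 0.555 CPM (SD, n = 3) in FGFR1 cells. IRF9 ran from 0.798 ± 0.833 CPM (SD, n = 3) in GFP cells to 6.25 ± 2.54 CPM (SD, n = 3) in FGFR1 cells. At the low end, IFI44L, OASL, USP18, TRIM22 and IFITM1 had means under 7 CPM in every population, close to the level of a few counts per well.

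The GFP and HcRed controls were compared directly, since they anchor the 2 sets. Of 30 members tested, 9 passed the threshold, 8 lower and 1 higher in GFP cells, where 10.8% of all genes tested passed. The median log2 fold change of the tested members was -0.49, against -0.02 over all genes. IFI27 was lower, with a difference on the log2 scale of -3.02 (SE 0.38, adjusted p = 3.98e-08), as were IFITM3 at -2.07 (SE 0.28, adjusted p = 2.67e-07) and UBE2L6 at -2.02 (SE 0.34, adjusted p = 1.37e-05). LGALS3BP was at -1.501 (SE 0.35, adjusted p = 0.0018), IFITM2 at -1.72 (SE 0.49, adjusted p = 0.0142) and ISG15 at -1.18 (SE 0.37, adjusted p = 0.0288). IFIT2 and IFIT5 were lower as well, at -0.87 and -0.94. PLSCR1, a scramblase that moves lipids between membrane leaflets, went the other way at 0.61 (SE 0.13, adjusted p = 0.000491), with 114, 102 and 92.4 CPM in GFP wells and 73.6, 73.5 and 61.2 CPM in HcRed wells. By role, 2 of 2 tested genes of the ISG15 system passed, 3 of 3 of the membrane group, 2 of 8 RNA-binding effectors, none of 6 sensors and signalling genes and none of the 3 genes of the PARP9 complex. Without GFP well 3 the count fell from 9 to 5, with IFI27, IFITM3, UBE2L6, LGALS3BP and PLSCR1 retained. In wells of the same 2 populations under other chemicals, a comparison added after the data were seen, 6 members passed under CSC (9.43% of all genes) and 6 under NNK (7.93%, and 4.45% lower), and IFI27, IFITM3, UBE2L6, LGALS3BP and IFITM2 were lower in both. The sixth under NNK, IFI35, passed the filter on low counts through the HcRed wells alone. Summed leukocyte markers moved in the same direction, from 10.1 to 14.7 CPM in GFP wells against 20.5 to 23.2 CPM in HcRed wells, as did epithelial markers, at 880.4 to 965.3 CPM against 1269 to 1343 CPM. Of the 7 leukocyte markers, CD3E, CD79A and NKG7 had no count in the 82 wells, PTPRC averaged 0.0488 counts per well and CD68, which epithelial cells can also express, gave most of the sum. Their part in the difference was not tested.

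Of the 7 comparisons of populations under DMSO, that of FAT1 with GFP cells had the most called members. Against GFP cells, 16 of 33 tested members were higher and none lower, where 14.1% of all genes tested passed (6.39% higher). Of the 16, IFI44L, OASL and TRIM22 passed the filter on low counts through the FAT1 wells alone. The filter itself thus set their higher mean count there, though not the call. The other 13 averaged over 1 count in both groups. The median log2 fold change was 1.13, against -0.01 over all genes. The IFIT genes rose together: the fold change on the log2 scale was 3.32 (SE 0.24, adjusted p = 2.32e-22) for IFIT2, 3.03 (SE 0.31, adjusted p = 8.08e-14) for IFIT1, 2.48 (SE 0.25, adjusted p = 2.94e-14) for IFIT3 and 1.48 (SE 0.29, adjusted p = 3.59e-05) for IFIT5. Every FAT1 well lay above every GFP well for each of the 16. They were called on these same wells, so the separation is no further evidence, and its share over all genes was not computed. IFI44 was higher by 3.35 (SE 0.31, adjusted p = 5.41e-16) and IFI27 by 3.43 (SE 0.37, adjusted p = 8.17e-13). Among the sensors DDX58 alone passed, at 2.46 (SE 0.38, adjusted p = 1.66e-07). ISG15 was at 2.03 (SE 0.34, adjusted p = 1.35e-06), UBE2L6 at 1.96, IFITM3 at 2.25, IFITM2 at 2.07, SAMD9 at 0.97 and LGALS3BP at 1.13. Summed leukocyte markers were at 12.7 to 15.3 CPM in FAT1 wells, overlapping GFP, and epithelial markers at 784 to 851 CPM were below GFP, and their part was not tested.

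Low-count members of the FAT1 comparison rest on few molecules. IFI44L had 23 counts in the 3 FAT1 wells and 0 in the 3 GFP wells, so it was at least 6.22-fold higher when the GFP group is set at a floor of 3 counts. OASL, which enhances RIG-I signalling, had 30 counts against 1, a ratio of 24.3 with a 95% counting interval of 4.04 to 992 (exact binomial). TRIM22, a ubiquitin ligase with antiviral activity, had 14 counts against 1, a ratio of 11.4 (1.73 to 479.9). Such intervals cover counting error only. All 14 alternative fits kept IFIT1, IFIT2, IFIT3, IFI44, IFI27, IFITM3, DDX58, SAMD9, ISG15, UBE2L6 and IFIT5 past the threshold, whereas TRIM22 was lost in 5 of 13 and LGALS3BP in 4 of 14.

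The FAT1 pattern was then followed in other wells, a check added after the data were seen. Under CSC, 15 of 34 tested members passed between FAT1 and GFP cells, 14 higher and PLSCR1 lower (11.2% of all genes). Under BaP 16 of 34 passed and under NNK 14 of 35, all higher (11.6% and 13.5% of all genes, 5.45% and 6.48% higher). IFI44L under CSC, IFI44L and OASL under BaP and IFI35 and OASL under NNK passed the filter on low counts through the FAT1 wells alone, which left 14, 14 and 12 called members with a mean over 1 count in both groups. The members that passed under all 4 chemicals numbered 11: DDX58, IFI27, IFI44, IFIT1, IFIT2, IFIT3, IFITM2, IFITM3, ISG15, LGALS3BP and UBE2L6. The share of all genes that passed under all 4 was not computed. These 4 comparisons share no well, but they hold the same populations in the same plate columns. Since the GFP wells were low, FAT1 cells were also set against HcRed cells, a control of another construct. Against HcRed, 9 of 35 members were higher under DMSO (13.3% of all genes, 6.82% higher), 7 of 34 under CSC (9.97%, and 4.78% higher) and 5 of 34 under NNK (11.2%, and 5.69% higher). IFIT2 was higher by 2.46 (SE 0.18, adjusted p = 1.63e-18), IFI44 by 2.43 (SE 0.23, adjusted p = 2.13e-13), IFIT1 by 2.14 (SE 0.23, adjusted p = 1.73e-11) and IFIT3 by 2.02 (SE 0.21, adjusted p = 7.81e-12), all on the log2 scale under DMSO. SAMD9, DDX58, OASL, ISG15 and IFI44L completed the 9. Of these, OASL and IFI44L passed the filter through the FAT1 wells alone, which set their higher mean count there, though not the call. The other 7 averaged over 1 count in both groups. Under DMSO, CSC and NNK alike, IFI44, IFIT1, IFIT2, IFIT3 and ISG15 passed, and the share of all genes that did so was not computed. Both the epithelial and the leukocyte sums given above were lower in every FAT1 well than in every HcRed well, and their part was not tested. IFITM3 was at 0.20 (SE 0.17), UBE2L6 at -0.04 (SE 0.21), IFITM2 at 0.36 (SE 0.30), LGALS3BP at -0.36 (SE 0.27) and IFI27 at 0.44 (SE 0.16) against HcRed under DMSO, none past the threshold. All 9 genes were also among the 16 higher against GFP, whereas IFIT5, at 0.56 with an adjusted p of 0.0796, was past the threshold against GFP alone.

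**Figure D3:**
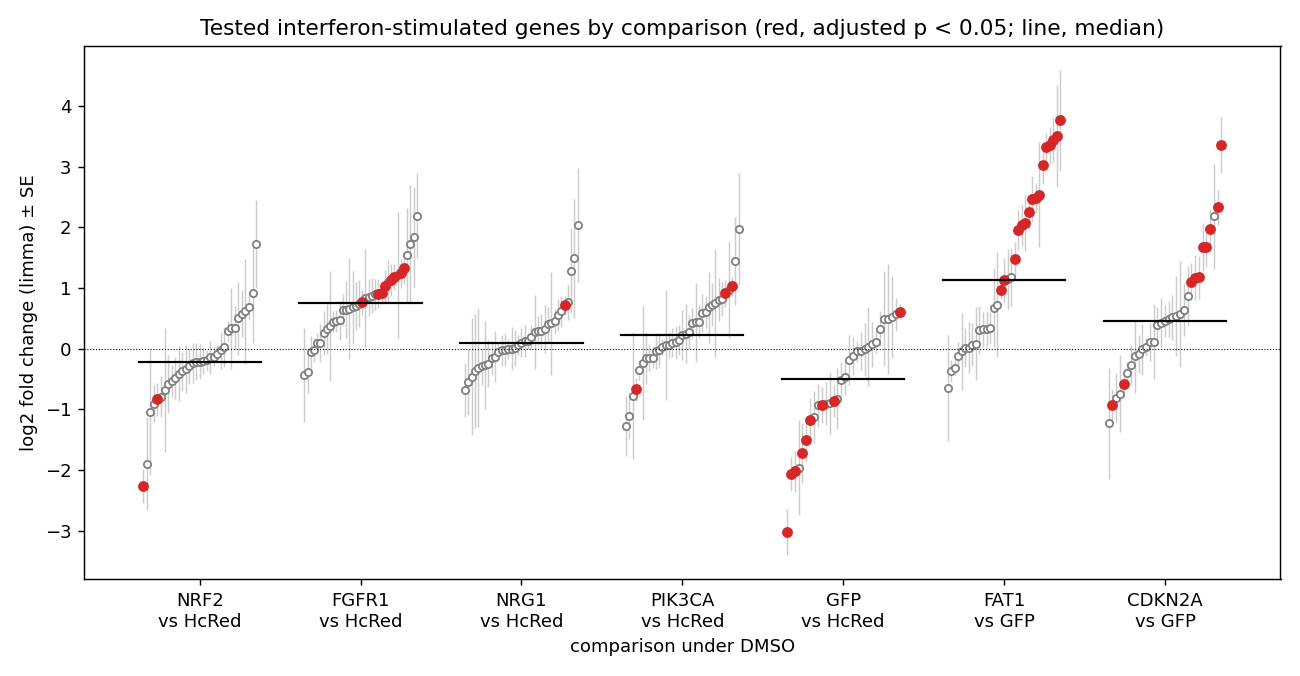
The log2 fold change of each tested interferon-stimulated gene (points, with SE) in the 7 comparisons under DMSO, sorted within a comparison; red points passed an adjusted p of 0.05 and lines are medians. The medians are 0.75 for FGFR1, -0.49 for GFP and 1.13 for FAT1.

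Cells targeted at CDKN2A differed from GFP cells in 10 of 31 tested members, 8 higher and 2 lower (17.9% of all genes). IFITM2 was higher by 3.35 (SE 0.46, adjusted p = 4.56e-09) and IFITM3 by 2.33 (SE 0.28, adjusted p = 9.33e-11). IFI44 was at 1.97 (SE 0.33, adjusted p = 1.49e-06), UBE2L6 at 1.67 (SE 0.34, adjusted p = 6.48e-05) and IFI27 at 1.67 (SE 0.40, adjusted p = 0.000928). Among the RNA-binding effectors IFIT5 passed at 1.10, while IFIT2 was at 0.49 (SE 0.29) and IFIT1 at 0.51 (SE 0.37), neither past the threshold. STAT2, a subunit of the transcription factor that switches these genes on, was lower at -0.94 (SE 0.27, adjusted p = 0.00792), and SP100, a nuclear body protein, at -0.59 (SE 0.21, adjusted p = 0.0312), with overlapping wells. DESeq2 called 5 of the members, all higher. Summed leukocyte markers, at 18.0 to 24.2 CPM, and endothelial markers, at 2.16 to 3.18 CPM against 0 to 1.68 CPM, were above those of GFP wells. The endothelial sum is PECAM1 in the main, with no count of VWF or CDH5 in the 82 wells. The part of these markers was not tested. FAT1 and CDKN2A cells share the GFP wells. Against HcRed, in a comparison added after the data were seen, 6 of 33 members passed, 4 higher and 2 lower (14% of all genes). IFITM2 at 1.63 and IFI44 at 1.03 remained higher, IFI27 was lower at -1.35, and IFITM3 was at 0.25 (SE 0.18). Epithelial markers, at 855 to 1082 CPM, lay below those of HcRed wells and the endothelial sum above its 0 to 1.71 CPM there, and their part was not tested.

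FGFR1 cells were compared with HcRed cells, and 8 of 36 members were higher and none lower, where 0.914% of all genes tested passed (0.501% higher). The median log2 fold change of the members was 0.75, against 0.01 over all genes, and 32 of the 36 values were positive. IFIT2 was higher by 1.19 (SE 0.21, adjusted p = 1.34e-05), IFIT3 by 1.24 (SE 0.24, adjusted p = 9.92e-05), IFI44 by 1.33 (SE 0.26, adjusted p = 0.000202) and IFITM3 by 0.91 (SE 0.17, adjusted p = 7.31e-05). These 4 passed in all 14 alternative fits. IFIT1 was at 1.13, ISG15 at 1.03, UBE2L6 at 0.76 and LGALS3BP at 0.90, each lost in 4 or 5 of the 14, and DESeq2 called only 4 members. PARP9, which with DTX3L modifies histones after interferon signalling, had an adjusted p of 0.0509 at 0.89 (SE 0.26). Summed epithelial markers, at 1034 to 1184 CPM, were below the 1269 to 1343 CPM of HcRed wells, while the leukocyte, fibroblast and endothelial sums overlapped, and their part was not tested. Without any 1 of the HcRed wells, or without FGFR1 well 1, the count was 5. Under NNK, 7 of 35 members were higher in FGFR1 cells (1.52% of all genes, 0.681% higher), in wells that the DMSO comparison did not use: IFIT2, IFIT1, IFIT3, IFI44, UBE2L6, IFITM3 and PARP9. Fewer than 3 wells with 1-digit numbers were at hand for FGFR1 under CSC and BaP.

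In the other overexpression populations few members passed. NRF2 cells were lower in 2 of 33 (4.91% of all genes, 1.52% lower), IFI27 at -2.26 (SE 0.28, adjusted p = 1.89e-09) and IFIT2 at -0.84 (SE 0.27, adjusted p = 0.0483). The IFI27 value passed in all 13 alternatives that gave an adjusted p, and in NRF2 wells under CSC and under NNK, at -2.05 and -2.26, as the lone called member of each (2.88% and 3.09% of all genes passed, and 1.32% and 1% lower). IFIT2 passed in 4 of 13, and without any 1 HcRed well or NRF2 well 2 or 3 it was lost. NRG1 cells had 1 called member of 35, the same IFI27 with the opposite sign, at 0.71 (SE 0.15, adjusted p = 0.000951), where 3.08% of all genes passed (2.08% higher). That IFI27 call was lost in the fit over DMSO and NNK wells, which holds NRG1 well 2 under NNK and was not run without it. Under NNK no member passed between NRG1 and HcRed cells, where 0.116% of all genes passed. None of 34 had an unadjusted p under 0.05, against 466 of all 11216 genes. Without NRG1 well 2, in a fit added after the data were seen, no member of 34 passed either (1.04% of all genes). There 4 had an unadjusted p under 0.05, against 946 of all 10596 genes, and IFI27 was at 0.53 (SE 0.20, adjusted p = 0.332). PIK3CA cells differed in 3 of 35 members (5.4% of all genes): IFITM3 at 1.02 (SE 0.15, adjusted p = 6.65e-07) and LGALS3BP at 0.91 (SE 0.22, adjusted p = 0.00375) were higher, and IFI27 at -0.67 (SE 0.19, adjusted p = 0.0204) was lower. The IFI27 call was lost in 5 of 14 alternatives: with DESeq2, in the fit over 24 DMSO wells, and without PIK3CA well 2 or 3 or HcRed well 3. IFITM3 was higher and IFI27 lower in PIK3CA wells under CSC and under NNK too, where 5 of 34 and 2 of 33 members passed (4.58% and 3.12% of all genes). Summed leukocyte markers were at 15.5 to 17.3 CPM in NRF2 wells, below the 20.5 to 23.2 CPM of HcRed wells. Summed fibroblast markers were at 6.46 to 15.8 CPM in NRG1 wells and 5.96 to 11.4 CPM in PIK3CA wells, above the 1.47 to 5.13 CPM of HcRed wells, while COL1A2 and COL3A1 had no count in a DMSO well. Epithelial markers were lower in both, at 769 to 889.6 CPM and 675 to 806 CPM. The part of these markers in the results was not tested. NRF2, FGFR1, NRG1, PIK3CA and GFP cells share the HcRed wells, so these comparisons are not independent of each other.

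Other genes of the pathway were read from a list of 92 symbols that holds none of the 39 members, of which 88 were in the files and 62 to 64 were tested in a comparison. The list held 11 symbols of interferon genes, and the 8 of them found in the files had a mean count under 0.5. IFNE was highest at 0.484 counts per well, IFNB1 averaged 0.0947, and IFNA1, IFNG and IFNL3 had no count. Interferon genes outside the list, such as the other IFNA genes, were not read. Among the receptors, IFNGR1 was higher in CDKN2A cells than in GFP cells (0.56, SE 0.16, adjusted p = 0.00795). Between FAT1 and GFP cells 8 of 62 pathway genes passed (12.9%, against 14.1% of all genes), 7 higher and 1 lower. IFI30, a lysosomal thiol reductase, was higher at 1.09 (SE 0.09), CASP1, the inflammasome protease, at 1.10 (SE 0.23) and DDX60, a helicase that aids RIG-I, at 1.95 (SE 0.51), while WARS, the tryptophan tRNA ligase, was lower at -0.64 (SE 0.10). Between FGFR1 and HcRed cells 4 of 64 passed (6.25%, against 0.914% of all genes), with GBP1, a guanylate-binding protein, at 2.21 (SE 0.51), IFI30 at 0.50, CASP1 at 0.73 and PNPT1, a mitochondrial RNA-degrading enzyme, lower at -0.76. Between GFP and HcRed cells 8 of 62 passed (12.9%, against 10.8%), 7 of them lower, including DDX60 at -2.37 (SE 0.51) and CASP1 at -1.21 (SE 0.22). The counts were 2 of 62 for NRF2 (3.23%, against 4.91%), 1 of 63 for NRG1 (1.59%, against 3.08%), 4 of 62 for PIK3CA (6.45%, against 5.4%) and 7 of 64 for CDKN2A (10.9%, against 17.9%). The shares for FGFR1, GFP and PIK3CA lay above those of all genes and the other 4 below.

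The next question was whether the chemicals changed these genes. All 3 share the DMSO wells. Each was compared with DMSO across the populations that had 3 wells under both, with population as a covariate. CSC lowered 5 of 35 tested members and raised none, where 5.81% of all genes tested passed (2.86% lower). IFIT1 fell most, at -1.11 (SE 0.14, adjusted p = 3.5e-09), followed by IFIT2 at -0.86 (SE 0.10, adjusted p = 1.25e-09) and IFIT3 at -0.73 (SE 0.13, adjusted p = 1.52e-05). IFITM2 was at -0.59 (SE 0.16, adjusted p = 0.00906) and IFITM3 at -0.301 (SE 0.08, adjusted p = 0.00737). All 5 had a negative log2 difference in 5 of 5 populations, in the same wells that called them. The uncalled IRF7 and IFIH1 did so too. In FAT1 wells IFIT2 was at 58.9, 42.9 and 46.4 CPM under CSC, in HcRed wells at 13.3, 12.8 and 7.003 CPM and in PIK3CA wells at 16.1, 15.6 and 14.2 CPM, in each case below every DMSO well of that population. In GFP wells it was at 9.87, 9.17 and 14.5 CPM and in NRF2 wells at 10.8, 6.02 and 13.2 CPM, both overlapping DMSO. IFIT1 was at 15.8, 25.2 and 22.2 CPM in FAT1 wells and 6.31, 4.56 and 8.66 CPM in PIK3CA wells, where no well overlapped DMSO either. Without the FAT1 population the count was 2, as IFIT2 (-0.45, adjusted p = 0.0518), IFIT3 (-0.35, adjusted p = 0.237) and IFITM3 (-0.25, adjusted p = 0.0757) no longer passed, and without replicate 3 or without NRF2 cells it was 3. In the limma interaction test over 30 wells, no member passed for a CSC response that depended on the population, where 0.106% of all genes did. IFIT2 came closest, with an F of 4.98 and an adjusted p of 0.431. At an unadjusted p under 0.05 there were 5 of 35 members and 665 of all 11371 genes. IFIT5 (0.13, SE 0.11), ISG15 (-0.15, SE 0.13) and UBE2L6 (0.11, SE 0.11) were not shown to change.

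**Figure D4:**
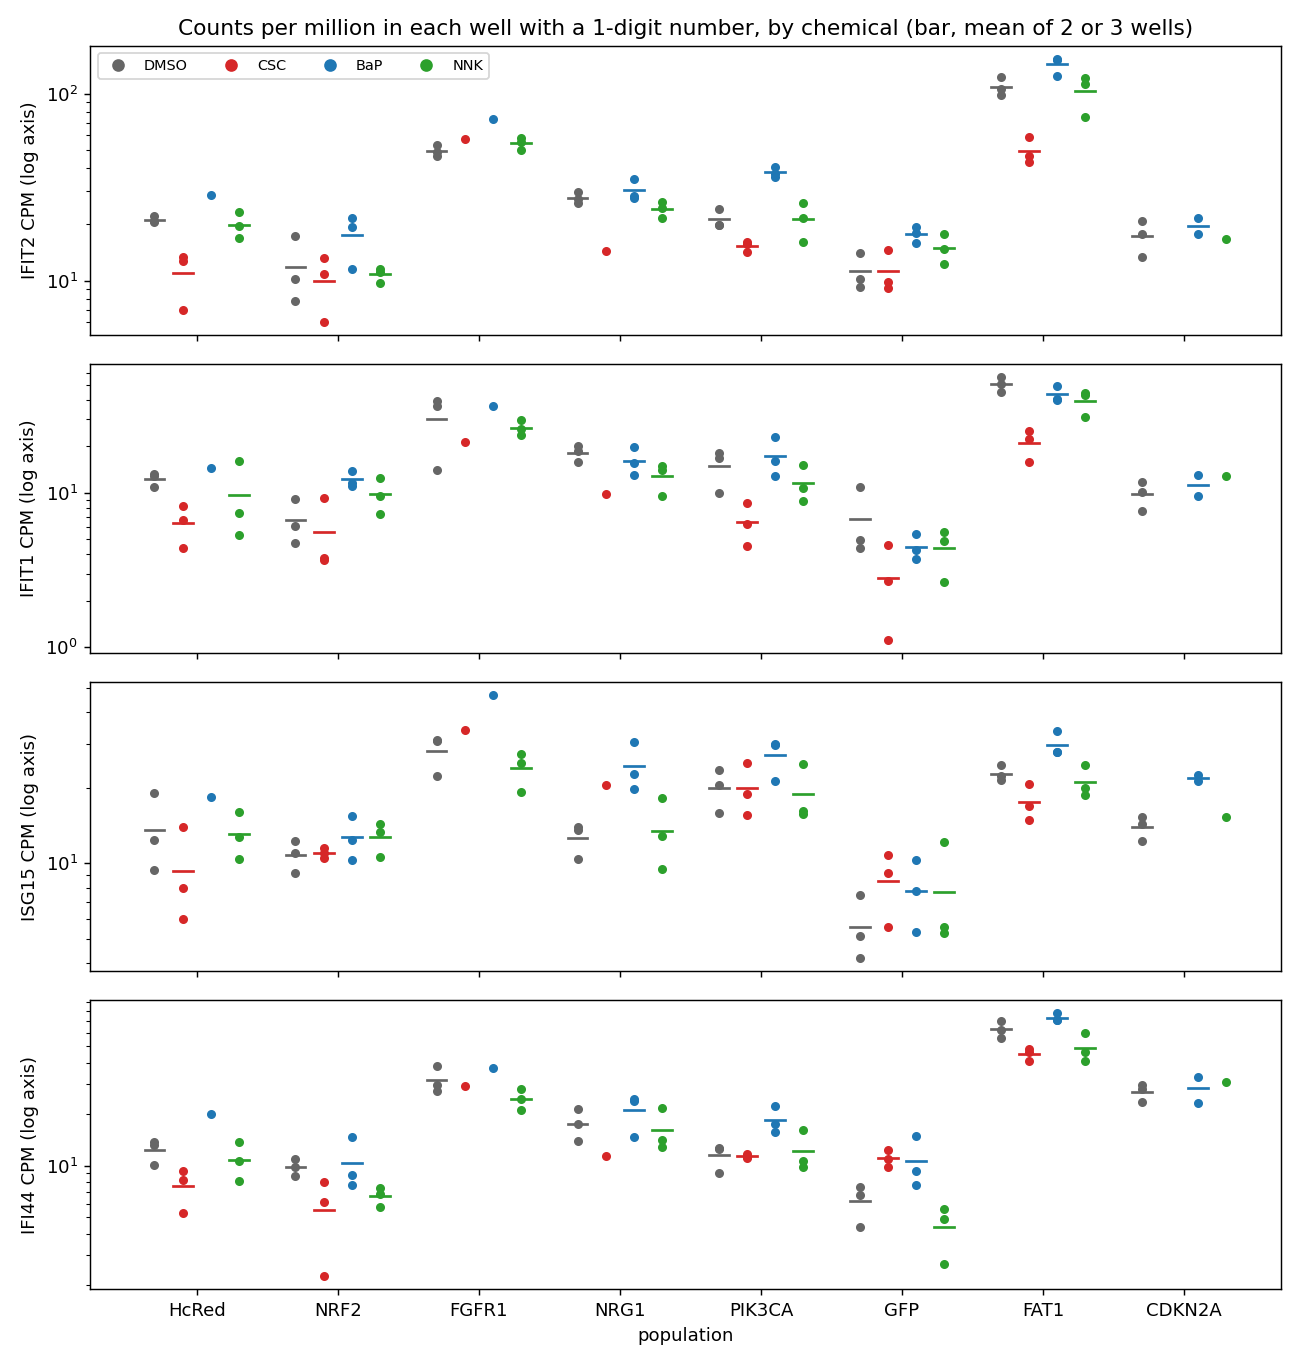
CPM of IFIT2, IFIT1, ISG15 and IFI44 (log axes) in each well with a 1-digit number, by population and chemical; short lines are means of 2 or 3 wells, and groups of 1 well have no line. Red CSC points of IFIT2 and IFIT1 lie below the grey DMSO points in HcRed, PIK3CA and FAT1 cells, and blue BaP points of IFIT2 lie above them in PIK3CA, GFP and FAT1 cells.

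BaP raised 9 of 36 members and lowered none, where 9.16% of all genes tested passed (5.04% higher). IFIT2 was higher by 0.49 (SE 0.08, adjusted p = 7.16e-06), ISG15 by 0.54 (SE 0.11, adjusted p = 0.00022), UBE2L6 by 0.51 (SE 0.10, adjusted p = 0.0003) and PARP9 by 0.51 (SE 0.12, adjusted p = 0.00215). All 4 had a positive difference in 5 of 5 populations, in the same wells that called them. The uncalled ISG20 did so too. IFIT3 was at 0.40, IFI27 at 0.38, IFI44 at 0.35, IFIT5 at 0.35 and IRF9, a DNA-binding subunit of the interferon-induced complex, at 0.84 (SE 0.28, adjusted p = 0.0388). IFIT2 stood at 125, 153 and 151 CPM in FAT1 wells, 35.8, 37.3 and 40.7 CPM in PIK3CA wells and 19.3, 18.1 and 15.9 CPM in GFP wells, above every DMSO well of each. In NRF2 wells it was at 19.4, 21.5 and 11.6 CPM and in NRG1 wells at 28.4, 27.7 and 35.02 CPM, both overlapping DMSO. ISG15 rose clear of the DMSO wells in NRG1 cells, at 30.6, 19.9 and 22.7 CPM, and in FAT1 cells, at 33.8, 27.8 and 27.9 CPM. IFIT1 was at -0.01 (SE 0.12) and IFITM3 at 0.08 (SE 0.08). IFIT5 passed in 8 of 17 alternatives, IRF9 in 7 of 16, and IFI27 and IFI44 in 12 of 17 each. ISG15 and PARP9 were lost without replicate 1, at 0.39 and 0.43, and IFI27 without the FAT1 population, at 0.19. Without the FAT1 population 5 members passed, without replicate 1 there were 4 and without replicate 3 there were 5. No member passed in the test of a BaP response that differed between populations, where 0.106% of all genes did. At an unadjusted p under 0.05 there were 4 of the 36 members and 761 of all 11306 genes.

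NNK changed no member past the threshold in 42 wells of 7 populations, where 7.22% of all genes passed. Of the 36, 7 had an unadjusted p under 0.05, a share close to that of all genes, where 2292 of 11349 did. The smallest were those of DTX3L at -0.39 (SE 0.14, adjusted p = 0.0799) and IFIT3 at -0.27 (SE 0.10, adjusted p = 0.0805). IFIT2 was at 0.03 (SE 0.08) and ISG15 at 0.01 (SE 0.11). Without NRG1 well 2 under NNK, 4 members passed, where 19.9% of all genes did: UBE2L6 was higher at 0.32 (SE 0.09), and PARP14 at -0.41 (SE 0.12), DTX3L at -0.44 (SE 0.14) and IFIT3 at -0.28 (SE 0.09) were lower, while IFIT2 was at 0.06 and ISG15 at 0.09. The count was 4 without the NRG1 population, and 1 without replicate 2 or without the FGFR1 population. DESeq2 and edgeR each called 0 members. The test of an NNK response differing between populations called no member, where 0.0176% of all genes were called. At an unadjusted p under 0.05 there were 2 of the 36 members and 704 of all 11349 genes. Without NRG1 well 2 again no member was called, against 0.0621% of all genes, with 2 members and 570 of all 11279 genes at an unadjusted p under 0.05.

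**Figure D5:**
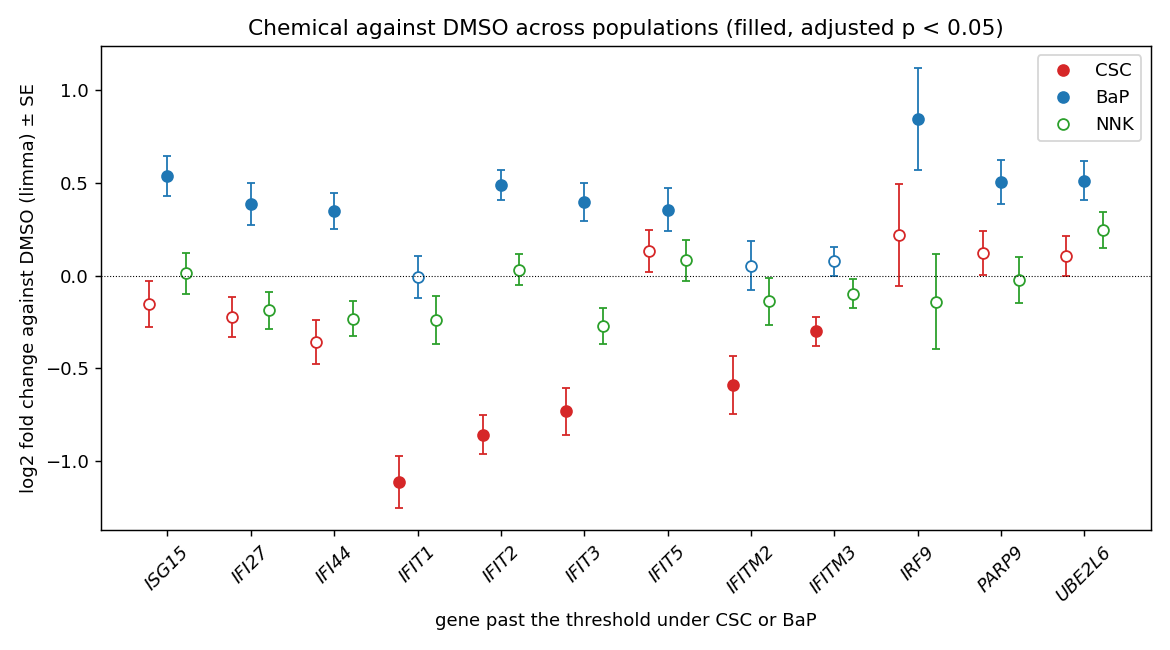
The log2 fold change against DMSO (points, with SE) of the 12 interferon-stimulated genes past the threshold under CSC or BaP, for CSC (red), BaP (blue) and NNK (green); filled points passed an adjusted p of 0.05. IFIT1, IFIT2 and IFIT3 lie below 0 under CSC, while IFIT2 and IFIT3 lie above 0 under BaP and every NNK point is open.

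CSC and BaP share their DMSO wells, so they were also set against each other without DMSO, in the 24 wells of NRF2, PIK3CA, GFP and FAT1 cells, a comparison added after the data were seen. Of 36 members, 9 passed, all lower under CSC (4.58% of all genes, 3% lower). IFIT2 differed by -1.38 (SE 0.10, adjusted p = 1.66e-16), IFIT1 by -1.16 (SE 0.15, adjusted p = 2.18e-08) and IFIT3 by -1.12 (SE 0.13, adjusted p = 2.01e-09). IFI27 was at -0.89, IFI44 at -0.67, IFITM2 at -0.64, ISG15 at -0.51, UBE2L6 at -0.42 and IFITM3 at -0.32. Of the pathway genes outside the list, 3 of 63 passed under CSC (4.76%, against 5.81% of all genes), 3 of 64 under BaP (4.69%, against 9.16%) and 5 of 64 under NNK (7.81%, against 7.22%). Without NRG1 well 2, 12 of 64 passed under NNK (18.8%, against 19.9%), with IFI30 at 0.32 and DDX60 at -0.58. IFI30 was higher under CSC (0.36, SE 0.04), BaP (0.59, SE 0.04) and NNK (0.27, SE 0.06). DDX60 was lower under CSC (-0.72, SE 0.18) and NNK (-0.58, SE 0.14), and IFNGR1, a subunit of the interferon gamma receptor, was higher under CSC (0.37, SE 0.07).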

How the data were processed

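Each deposited file held 1 well as unnormalized UMI counts by gene, which reached the authors already quantified: reads were aligned to RefSeq transcripts of hg19 with BWA (0.7.10 in the submitters' processing notes), and a UMI was counted once per gene and well where it matched a single gene. 3′ counts stand for molecules and were not divided by gene length. Counts with a mean over 1 in the compared wells were tested with limma-voom (limma 3.58.1, TMM factors from edgeR 4.0.16, R 4.3.3). Population pairs were fitted on their own wells, and each chemical across populations with 3 wells under both, with population as a covariate. The 13 wells with 2-digit numbers were left out of the main fits, because the labels do not say whether they are separate cultures. The code was tested on simulated data. The alternatives were DESeq2 1.42.0, edgeR, other normalization, filters, pooled fits and left-out wells. The members and gene lists were chosen with earlier results of these data known. Genes named were the 12 members with the smallest adjusted p in the F test, up to 8 called members per comparison by size, and up to 4 called pathway genes; others with values were added to account for the list, after their values were seen. A result for 1 pathway gene is not reported here.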

Additional observations from a re-analysis of the deposited data

Results flagged for a closer look

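The 2-digit wells, outside the main comparisons, held 11 values in which every such well of a population lay beyond all its DMSO wells in the direction of the main result. These are differences from DMSO in TMM-scaled log2 CPM with 2 wells a group, or 3 for CDKN2A under CSC, and were not tested. Under CSC, NRG1 wells were lower for IFIT1 (-1.09), IFIT2 (-0.95) and IFIT3 (-0.94), FGFR1 wells for IFITM3 (-0.51) and CDKN2A wells for IFIT2 (-0.42). Under BaP, FGFR1 wells were higher for IFIT2 (0.72), ISG15 (0.59), UBE2L6 (0.48) and IFIT3 (0.47), and HcRed wells for ISG15 (0.67) and PARP9 (0.44). Without TMM scaling 2 of the 11 overlapped DMSO: ISG15 in HcRed wells, at 24.2 and 17.2 CPM against up to 19.1 CPM, and UBE2L6 in FGFR1 wells, at 74.6 and 46.9 CPM against up to 49.7 CPM. In all, 5 of 15 comparisons under CSC and 6 of 18 under BaP were separated in this way, and 13 and 12 had the sign of the main result. The same shares over all called genes were not computed, so these counts describe the members' wells alone.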

How the results depend on the processing

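Of 188 recomputed counts of called members, 151 stayed within 1.5 times the main count and 37 moved. A count has no direction that could change. Of 1137 recomputed values of single genes, 1003 stayed past the threshold and 134 did not. No fold change turned its sign, while the values of the F test over 8 populations have no sign to turn. The counts in this section, and most counts of alternative fits above, stand without the share of all genes called in the same fit. A rise or fall in them may therefore not be particular to the members. DESeq2 called 5 members for GFP, 0 for NRG1, 4 for FGFR1, 0 for NRF2 and 5 for CDKN2A, and it gave IFI27 no adjusted p in the NRF2 and NRG1 comparisons. Fits over all chemicals called 14 for GFP, 8 for PIK3CA, 0 for NRG1, 14 for FGFR1 and 6 for NRF2, and were not run for CDKN2A against GFP, which lacks the wells. For NRF2, testing without a filter on low counts and one fit over the 24 DMSO wells each called 1.

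For CSC the count was 3 without NRF2 cells, 2 without FAT1 cells, 11 with all wells as separate samples and 10 with 2-digit wells summed. For BaP it was 5 without FAT1 cells. For NNK it was 1 without FGFR1 cells, 4 without NRG1 cells, 1 in one fit over all groups, 3 with all wells and 2 with those wells summed, and 4 without NRG1 well 2.

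Leaving out single wells or replicate numbers gave 1 to 2 for NRF2 (1 without any HcRed well or NRF2 well 2), 5 to 10 for FGFR1, 1 to 1 for NRG1, 2 to 4 for PIK3CA, 5 to 8 for GFP, 14 to 17 for FAT1, 7 to 10 for CDKN2A, 22 to 23 across populations, 3 to 4 for CSC, 4 to 6 for BaP, 0 to 4 for NNK and 0 to 0 for the differing responses.

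Replicate numbers were not used to pair the wells, as in no comparison did every pair of same-numbered wells correlate above 0.1. A weak or partial pairing would also fail this rule, so it cannot show that the wells were unpaired. With a replicate block NRF2 had 1 called member, FAT1 17 and CDKN2A 11, and the other counts equalled the main ones. Genes at a few counts per well limit the precision.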
